A study of Mus musculus with 4 samples.

Results

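The subject is a group of 10 genes that mark or steer the hepatocytes around the central vein of the mouse liver lobule: Glul, Rhbg, Oat, Rgn, Lect2, Tbx3, Axin2, Lgr5, Rnf43 and Znrf3. They were taken by gene name from tables of 35522 genes, and all 10 were found. The study profiled liver RNA 24 h after exposure to the carcinogen diethylnitrosamine (DEN), which P450 enzymes of the liver convert to a DNA-alkylating form. Livers with the genotype label Dph1 KO (n = 2 libraries) were compared with livers labelled Control (n = 2 libraries), all from C57BL/6 mice and all given DEN. Dph1 encodes a subunit of the enzyme that begins the synthesis of diphthamide, a modified histidine in translation elongation factor eEF2. The labels name neither the allele, nor any driver, nor the cells that lack the gene, nor age or sex, and they do not tie each library to a separate animal. The p-values therefore measure only the spread between these libraries, which may be technical. Livers without DEN were not analysed here.

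Wnt ligands and R-spondins released by endothelial cells of the central vein keep beta-catenin active in the nearest hepatocytes. There beta-catenin, with TCF/LEF factors bound to the core sequence CTTTG, maintains the pericentral program, which includes glutamine synthesis and drug metabolism. The pathway also limits itself: Axin2 helps destroy beta-catenin, and the ligases Rnf43 and Znrf3 remove Frizzled receptors. The receptor Lgr5, by contrast, binds R-spondins that restrain these ligases. Genes of this program do not all depend on Wnt in the same way, and several have further regulators.

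Promoter sequences of 4 members are shown because they let the reader see where the TCF/LEF core occurs next to the start of genes with different test results. They are the 250 bases before the transcript start, from RefSeq on GRCm38.p6, 5′ to 3′ on the strand of the gene. Glul fell and Oat rose in the Dph1 KO livers, Axin2, a widely used Wnt readout, and Lect2, which carries the motif, were not called. Capitals mark the core CTTTG and the longer motif CTTTGAT, which contains it, on either strand. On the opposite strand the core is written as CAAAG.
Lect2: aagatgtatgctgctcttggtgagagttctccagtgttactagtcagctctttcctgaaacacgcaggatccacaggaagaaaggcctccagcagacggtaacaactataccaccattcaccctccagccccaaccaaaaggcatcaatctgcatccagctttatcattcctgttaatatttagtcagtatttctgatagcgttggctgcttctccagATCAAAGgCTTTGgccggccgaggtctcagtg
Glul: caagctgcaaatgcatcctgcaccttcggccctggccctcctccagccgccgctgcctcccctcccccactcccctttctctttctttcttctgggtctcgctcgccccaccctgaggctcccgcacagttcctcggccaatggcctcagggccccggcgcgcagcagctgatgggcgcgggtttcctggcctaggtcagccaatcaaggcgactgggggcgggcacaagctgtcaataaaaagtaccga
Oat: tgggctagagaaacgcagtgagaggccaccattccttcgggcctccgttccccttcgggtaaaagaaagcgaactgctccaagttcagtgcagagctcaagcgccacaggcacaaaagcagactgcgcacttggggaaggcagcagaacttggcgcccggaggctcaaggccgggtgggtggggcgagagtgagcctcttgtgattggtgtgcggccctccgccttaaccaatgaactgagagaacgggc
Axin2: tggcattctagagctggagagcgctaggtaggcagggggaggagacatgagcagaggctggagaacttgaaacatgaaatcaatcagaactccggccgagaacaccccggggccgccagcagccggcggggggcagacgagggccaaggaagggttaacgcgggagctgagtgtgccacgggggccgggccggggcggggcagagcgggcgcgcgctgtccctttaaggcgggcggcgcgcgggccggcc
The windows are chr13:56548539-56548788 on the minus strand for Lect2 and chr1:153899679-153899928 on the plus strand for Glul. They are chr7:132576399-132576648 on the minus strand for Oat and chr11:108920099-108920348 on the plus strand for Axin2. The table held promoters for 5 of the 10 members, these 4 and Rnf43, and those of Rgn, Lgr5, Tbx3, Znrf3 and Rhbg are not shown. Lect2 was the single member of these 5 with either motif, with CTTTGAT starting at position -32 on the opposite strand and a further CTTTG just downstream. Of 32851 promoter windows of the same length, 3.21% held CTTTGAT and 48.6% held CTTTG. A match is a description of letters and not a binding site.

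The libraries held 19474596 to 21137358 reads in genes. Counts per 1000000 reads (CPM) below are scaled by TMM, a factor that corrects for differences in library composition. Dph1 had 17.8 and 31.5 CPM in Dph1 KO, against 70.3 and 68.3 CPM in Control. Its transcript was thus lower but present in the Dph1 KO livers. Reads that match several places made up 227 and 398 of its 421 and 689 reads in Dph1 KO. In Control they made up 530 and 506 of 1292 and 1228 reads. The log2 fold change of Dph1 was -1.49 with all reads and -1.93 with uniquely matched reads alone. All 4 libraries had reads of the Y-linked genes Ddx3y and Eif2s3y, with Xist at 0.218 CPM or less. By the quasi-likelihood test of edgeR, 1640 of 13303 genes were called at a Benjamini-Hochberg adjusted p under 0.05 (12.3%), and 646 of them rose while 994 fell. With library totals in place of TMM, 2634 rose and 789 fell, shifting the median of all log2 fold changes by 0.26. Fold changes over all genes also followed the GC content of the transcript. Values with a smooth GC and length trend taken out of each library are called trend-removed. Dph1 KO replicate 1 differed from its partner more than the Control libraries differed from each other, with a median ratio of the higher to the lower value of 1.25 in the Dph1 KO pair and 1.15 in the Control pair.

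All 10 members passed the filter on low counts, and 5 of them were called, beside 12.3% of all genes: Oat, Rgn and Tbx3 rose, and Glul and Rhbg fell. The share rising was 30% of members beside 4.86% of all tested genes, and the share falling was 20% beside 7.47%. The other 5 members, Lect2, Axin2, Rnf43, Znrf3 and Lgr5, had positive log2 fold changes and were not called. The median log2 fold change over all 10 was 0.55, against 0.041 over all genes. In 8 of 10 members the Dph1 KO and Control libraries did not overlap, beside 67.4% of all tested genes. With all 4 libraries, called members of the set thus moved in opposite directions. Without Control replicate 1 only falls were called among members, and without Control replicate 2 only rises. The log2 fold changes of the 5 called members kept their sign in both cases. In whole liver, fewer cells of a type and less RNA per cell cannot be told apart. DESeq2 called the same 5 members, beside 15.9% of all genes, and limma on log2(TPM + 1) called 0 members, beside 0.0226% of all genes. In that limma fit 6 members had an unadjusted p under 0.05, but the share of all genes under it was not counted. With library totals alone 5 members rose, beside 19.8% of all genes, and 2 fell, beside 5.93%. Without Control replicate 1 or Control replicate 2 just 2 members were called, beside 5.43% and 3.82% of all genes. Without Dph1 KO replicate 1 it was 4 members beside 9.74%, and without Dph1 KO replicate 2 it was 6 members beside 39.3%.

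**Figure D1:**
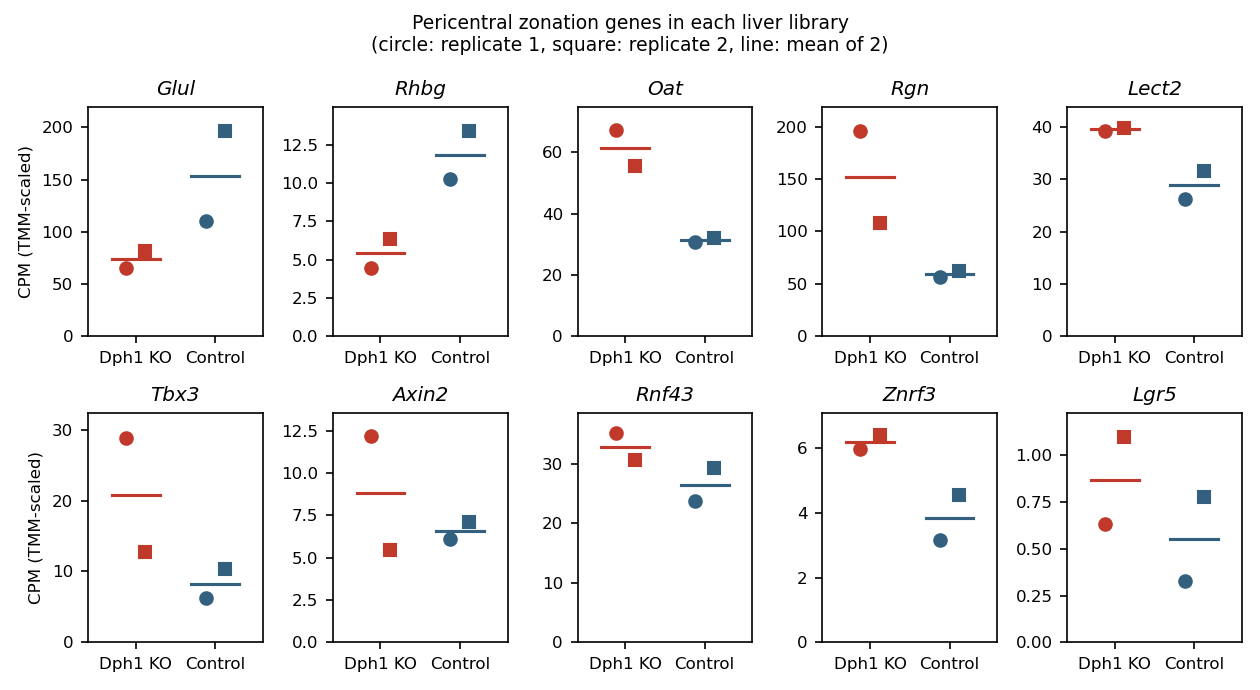
TMM-scaled CPM of each member (vertical axis, linear from 0) in the 2 Dph1 KO libraries (red, left) and the 2 Control libraries (blue, right); circles are replicate 1, squares replicate 2 and lines the means of 2. Glul and Rhbg lie lower in both Dph1 KO libraries, Oat and Rgn higher, while Tbx3 and Axin2 are high in Dph1 KO replicate 1.

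Of 3 members that handle nitrogen, Glul and Rhbg fell and Oat rose. Glul encodes glutamine synthetase, which joins ammonia to glutamate in the last hepatocytes before the central vein (gene ID 14645; GRCm38 chromosome 1, 153899945 to 153909714). It had 65.3 and 81.9 CPM in Dph1 KO, against 110 and 197 CPM in Control. Both Dph1 KO libraries were below both Control libraries, and the Control libraries differed from each other by 1.78-fold. The mean was 73.6 ± 11.7 CPM in Dph1 KO and 153 ± 61.1 CPM in Control (SD, n = 2 each), a log2 fold change of -1.06 (SE 0.28; edgeR adjusted p = 0.0400). Without Control replicate 2, the higher Control library, the log2 fold change was -0.58 and the call was lost (edgeR adjusted p = 0.416).

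Rhbg encodes an ammonium transporter of the plasma membrane (gene ID 58176; chromosome 3, 88242874 to 88254684). It had 4.49 and 6.36 CPM in Dph1 KO, against 10.3 and 13.4 CPM in Control. The groups did not overlap, and the log2 fold change was -1.13 (SE 0.26; edgeR adjusted p = 0.0247). Rhbg has the highest transcript GC content of the members, 56.9%, in the class of genes whose median log2 fold change was -0.56. Its trend-removed log2 fold change was -0.64 and was not called (edgeR adjusted p = 0.0680), and without Control replicate 2 it was -0.92 and not called (edgeR adjusted p = 0.152).

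Oat encodes ornithine aminotransferase, the mitochondrial enzyme that turns ornithine towards glutamate, and it shares the pericentral zone with Glul (gene ID 18242; chromosome 7, 132557475 to 132576398). It had 67.3 and 55.5 CPM in Dph1 KO, against 30.7 and 31.9 CPM in Control. Each Dph1 KO library was well above the Control libraries, which lay close together. Oat rose, by 0.97 on the log2 scale (SE 0.20; edgeR adjusted p = 0.0192). Leaving out either Control library kept the size, at 0.94 and 1.00, but not the call.

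Glul and Oat were also compared inside each library, where no scaling between libraries enters. Their ratio cannot tell a fall of Glul from a rise of Oat. Values per 1000000 transcripts (TPM), which divide reads by transcript length, gave a Glul to Oat ratio of 0.757 and 1.15 in Dph1 KO, against 2.77 and 4.81 in Control. Oat transcripts were thus about level with Glul in the Dph1 KO livers and well below it in Control. The TPM ratio of Glul to the pericentral landmark Cyp2e1 was 0.0464 and 0.0655 in Dph1 KO, against 0.0854 and 0.148 in Control. That of Oat to Cyp2e1 was 0.0612 and 0.0570 in Dph1 KO, against 0.0309 and 0.0307 in Control. These ratios were not tested.

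Among 23 tested genes of glutamine, ornithine and ammonium handling outside the members, 1 fell and 22 were not called, beside 12.3% of all genes called. The list median was -0.24 on the log2 scale. The one that fell was Slc38a3, the glutamine transporter also called SNAT3. It had 926 and 1266 CPM in Dph1 KO, against 2282 and 2667 CPM in Control (-1.18 on the log2 scale, SE 0.30, edgeR adjusted p = 0.0356). This call was lost without either Control library, at -1.29 and -1.06. Gls2, the liver glutaminase of the periportal zone, had 206 and 260 CPM in Dph1 KO, against 304 and 278 CPM in Control, and was not called (edgeR adjusted p = 0.364). The ammonium transporter genes Rhag and Rhcg were at 0 reads in all 4 libraries.

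Rgn and Lect2 encode hepatocyte products of the pericentral zone. Rgn, for regucalcin, is a calcium-binding lactonase (gene ID 19733; chromosome X, 20549818 to 20562087). It had 196 and 108 CPM in Dph1 KO, against 56.9 and 62.7 CPM in Control. Both Dph1 KO libraries were higher, and Dph1 KO replicate 1 stood 1.81-fold above replicate 2. Rgn rose by 1.34 on the log2 scale (SE 0.28; edgeR adjusted p = 0.0196). Without Dph1 KO replicate 1 it was 0.88 and still called, and without Control replicate 1 it was 1.27 and not called (edgeR adjusted p = 0.0513). Rgn has the lowest transcript GC content of the members, 41.7%, and its trend-removed value was 0.99 and called.

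Lect2 encodes a secreted chemotactic protein made by hepatocytes (gene ID 16841; chromosome 13, 56542460 to 56548538). It had 39.2 and 39.9 CPM in Dph1 KO, against 26.3 and 31.6 CPM in Control. The Dph1 KO libraries were nearly equal and above Control, but the difference was not called (0.45 on the log2 scale, SE 0.19, edgeR adjusted p = 0.131).

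Tbx3 encodes a T-box transcription factor of pericentral hepatocytes and a beta-catenin target (gene ID 21386; chromosome 5, 119670669 to 119684601). It had 28.8 and 12.7 CPM in Dph1 KO, against 6.25 and 10.3 CPM in Control. Dph1 KO replicate 1 was far above the other 3 libraries, and Dph1 KO replicate 2 lay just over Control replicate 2. The log2 fold change of Tbx3 was 1.32 and called (SE 0.36; edgeR adjusted p = 0.0424). Without Dph1 KO replicate 1 it was 0.64 and not called (edgeR adjusted p = 0.110), and without Control replicate 1 it was 1.00 and not called (edgeR adjusted p = 0.0832). With limma-voom it was 1.25 and not called (adjusted p = 0.0619).

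The feedback genes of the pathway were not called. Axin2, the scaffold that helps destroy beta-catenin (gene ID 12006; chromosome 11, 108920349 to 108950783), had 12.2 and 5.44 CPM in Dph1 KO, against 6.09 and 7.12 CPM in Control. Its Dph1 KO libraries lay on either side of Control, and the log2 fold change was 0.42 (SE 0.34; edgeR adjusted p = 0.391). Without Dph1 KO replicate 1 the direction turned, to -0.25, and without Dph1 KO replicate 2 it was 0.90 and called (edgeR adjusted p = 0.00754).

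Rnf43 and Znrf3 encode related membrane ubiquitin ligases that clear Frizzled receptors. Rnf43 (gene ID 207742; chromosome 11, 87663087 to 87735539) had 35.1 and 30.6 CPM in Dph1 KO, against 23.7 and 29.3 CPM in Control. The groups were separated by a narrow gap, and the log2 fold change of 0.31 was not called (edgeR adjusted p = 0.289). Reads that match several places made up 167 and 207 of its 829 and 670 reads in Dph1 KO, against 191 and 209 of 436 and 527 reads in Control. With uniquely matched reads alone the log2 fold change was 0.66, again not called (edgeR adjusted p = 0.0749). Its trend-removed value was 0.61, not called either.

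Znrf3 (gene ID 407821; chromosome 11, 5276329 to 5444847) had 5.98 and 6.40 CPM in Dph1 KO, against 3.15 and 4.56 CPM in Control. Both Dph1 KO libraries were higher, with a log2 fold change of 0.68 (SE 0.27; edgeR adjusted p = 0.109). Lgr5, the R-spondin receptor (gene ID 14160; chromosome 10, 115450314 to 115587780), was barely detected, with 15 and 24 reads in Dph1 KO and 6 and 14 reads in Control. Of these, 9 and 14 in Dph1 KO and 0 and 7 in Control were exon reads. Scaled values overlapped between genotypes, at 0.636 and 1.10 CPM in Dph1 KO, against 0.326 and 0.779 CPM in Control. The log2 fold change of Lgr5, 0.64, had an SE of 0.53 (edgeR adjusted p = 0.407), so no difference was detectable at this depth.

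**Figure D2:**
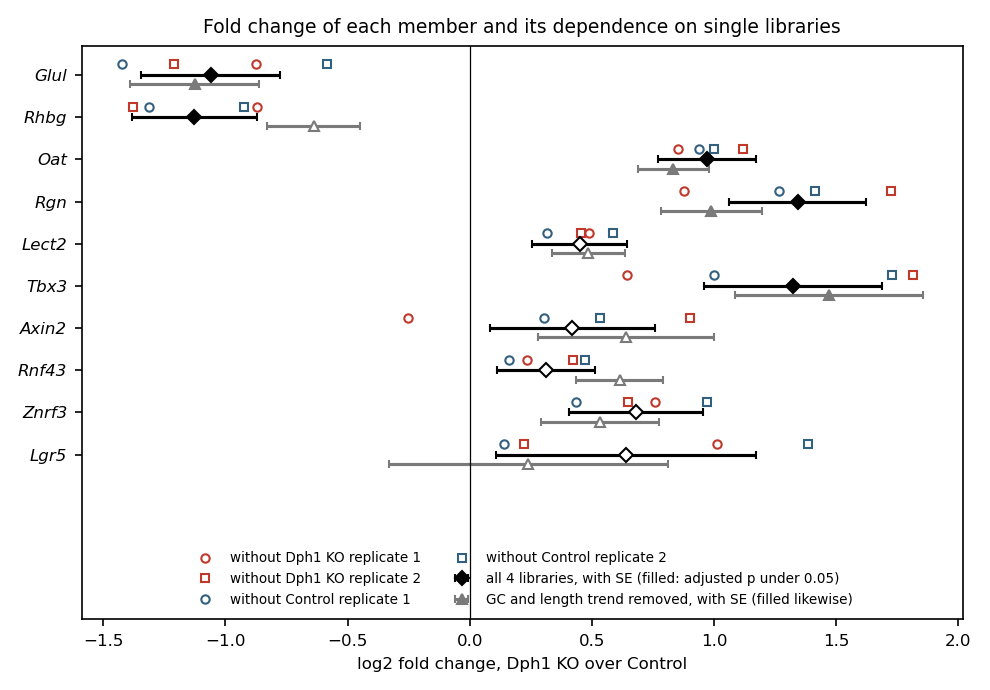
Log2 fold change of Dph1 KO over Control for each member with all 4 libraries (black diamonds), after removal of the GC and length trend (grey triangles), and with each library left out (open circles and squares); bars are SE, and filled symbols have an adjusted p under 0.05. Axin2 crosses 0 without Dph1 KO replicate 1, Glul moves to -0.58 without Control replicate 2, and Rhbg loses its call with the trend removed.

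Ordered by length-normalised level, Rgn came first in Dph1 KO at 195 ± 105 TPM, then Lect2 at 87.0 ± 11.6, Oat at 56.1 ± 16.3 and Glul at 51.2 ± 0.012 TPM (SD, n = 2). In Control the order was Glul at 81.1 ± 27.7 TPM, Rgn at 56.7 ± 0.35, Lect2 at 48.5 ± 2.69 and Oat at 21.6 ± 0.92 TPM (SD, n = 2). Oat and Glul lay within their spread of each other in Dph1 KO, as did Glul and Rgn in Control. The other 6 members were lower in both groups. Rnf43 led them in Dph1 KO at 8.81 ± 2.54 TPM and Rhbg in Control at 9.22 ± 1.20 TPM, and Lgr5 was last in both at 0.209 ± 0.044 TPM in Dph1 KO and 0.0594 ± 0.084 TPM in Control (SD, n = 2).

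Reads that span exon junctions come from spliced RNA, and reads in introns largely from unspliced RNA. Glul had 416 and 522 junction reads in Dph1 KO, against 597 and 1095 in Control, and Oat had 626 and 443 in Dph1 KO, against 214 and 222 in Control. Rgn had 1671 and 876 junction reads in Dph1 KO, against 401 and 447 in Control. For all 3 genes the junction reads, which are unscaled, were ordered as the totals were. They are part of those totals, so their order is not a separate line of evidence. Intron reads of Oat were 31 and 26 in Dph1 KO, against 4 and 9 in Control, whereas those of Glul were 19 and 30 in Dph1 KO, against 27 in each Control library. Rgn introns held 82 and 9 reads in Dph1 KO, against 9 and 7 in Control, and Tbx3 introns held 46 and 12 reads in Dph1 KO, against 8 and 4 in Control. High intron counts of Rgn and Tbx3 thus came from Dph1 KO replicate 1, where introns took 10.98% of all gene reads, the highest share of the 4 libraries. These counts were not tested.

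Transcript GC content was set beside the members' fold changes. In 5 equal classes of tested genes from low to high transcript GC content, the median log2 fold change ran from 0.48 in the lowest class to -0.56 in the highest. The members followed that order at its ends. Rgn, the member of lowest GC content, had the highest fold change, and Rhbg, of highest GC content, the lowest. Between them, Oat, Lgr5, Lect2 and Znrf3 were positive in classes with positive medians. Tbx3, Axin2 and Rnf43 were positive in classes with negative medians, and Glul was negative in a class with a positive median. Tbx3, at 54.2% GC content, had 1.32, close to Rgn at 1.34. Relative to the median of its class, Rgn lay at 0.87, Lgr5 at 0.36, Oat at 0.69 and Lect2 at 0.17. Znrf3 lay at 0.61, Tbx3 at 1.56, Axin2 at 0.66 and Rnf43 at 0.88 on the same scale, while Glul lay at -1.13 and Rhbg at -0.56. With the trend removed, 4 members were called beside 8.88% of all genes. Oat, Rgn and Tbx3 rose, beside 3.98% of all genes, Glul fell, beside 4.9%, and Rhbg was not called.

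**Figure D3:**
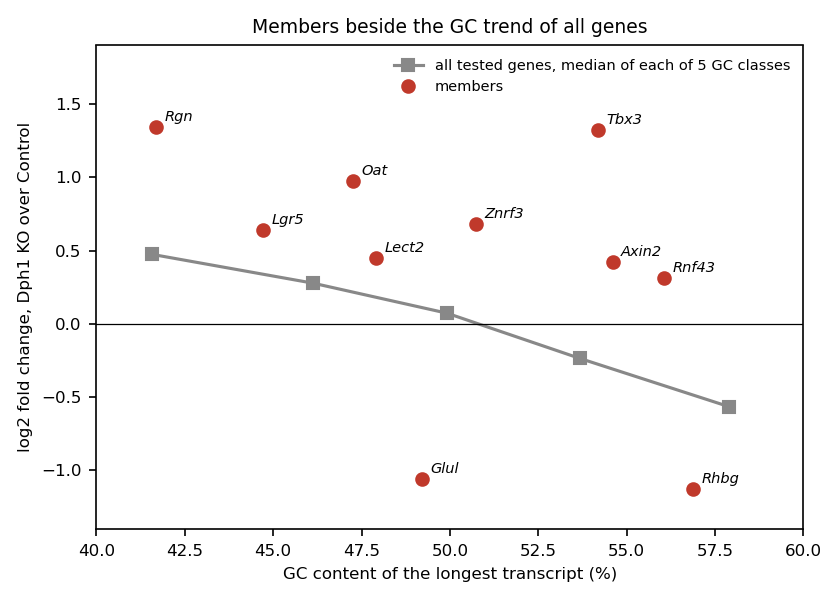
Log2 fold change of Dph1 KO over Control (vertical axis) against GC content of the longest transcript in percent (horizontal axis) for the 10 members (red), with the median of all tested genes in each of 5 GC classes (grey squares). The grey line falls from 0.48 to -0.56, 8 members lie above it, and Glul and Rhbg lie below.

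Among other genes known from the pericentral zone, the share rising was above that of all genes, and the share falling was near it. Of 28 tested genes of that list, 7 rose (25%, beside 4.86% of all genes), 2 fell (7.14%, beside 7.47%) and 19 were not called. The median log2 fold change was 0.53. Lgr4, among those that rose, is counted again with the Wnt receptors below. The rises included Cyp2c37 (log2 fold change 1.32, SE 0.24), Cyp2c29 (1.53, SE 0.33) and Ahr, the aryl hydrocarbon receptor gene (1.03, SE 0.21), with edgeR adjusted p of 0.0111, 0.0218 and 0.0191. Cyp2c genes lie in a cluster of similar copies that can share reads. With uniquely matched reads alone, Cyp2c37 stood at 1.32 and Cyp2c29 at 1.52 (edgeR adjusted p = 0.0169 and 0.0217). Gstm3, a glutathione transferase gene with close relatives, fell by 0.94 (SE 0.23; edgeR adjusted p = 0.0331). With uniquely matched reads alone Gstm3 stood at -0.89 (edgeR adjusted p = 0.0400). Without Control replicate 1, Cyp2c37 at 1.07, Cyp2c29 at 1.14 and Gstm3 at -1.09 were not called, and without Control replicate 2, Ahr at 0.82 and Gstm3 at -0.77 were not called. With the trend removed, Ahr was not called (edgeR adjusted p = 0.0504), and 5 genes of the list rose and 2 fell. The landmark Cyp2e1, a P450 that activates DEN, had 902 and 799 CPM in Dph1 KO, against 801 and 835 CPM in Control, and was not called (0.056 on the log2 scale, edgeR adjusted p = 0.898). The genotypes overlapped for Cyp2e1.

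At the other end of the lobule, 1 of 30 tested periportal genes rose (3.33%, beside 4.86% of all genes) and 4 fell (13.3%, beside 7.47%). The other 25 were not called, and the median over all 30 was 0.035. Apoa4, an apolipoprotein gene, rose by 1.22 on the log2 scale (SE 0.28; edgeR adjusted p = 0.0258). Hsd17b6, a steroid and retinoid dehydrogenase gene, fell by 1.18 (SE 0.24; edgeR adjusted p = 0.0182), and Sdsl fell by 1.51 (SE 0.34; edgeR adjusted p = 0.0247). Serpina1e, of a family of near-identical copies, fell by 1.46 (SE 0.32; edgeR adjusted p = 0.0234). With uniquely matched reads alone Serpina1e stood at -1.48 (edgeR adjusted p = 0.0215). Without Control replicate 1 the calls of Apoa4 (1.24) and Serpina1e (-1.56) were lost, and without Control replicate 2 those of Apoa4 (1.20), Serpina1e (-1.37) and Hsd17b6 (-0.85). The landmark Cyp2f2 had 1210 and 1360 CPM in Dph1 KO, against 2002 and 2934 CPM in Control, and was not called by edgeR (-0.94 on the log2 scale, adjusted p = 0.0650) but was by DESeq2 (adjusted p = 0.00220). Whether the pericentral and periportal lists differ from each other was not tested.

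**Figure D4:**
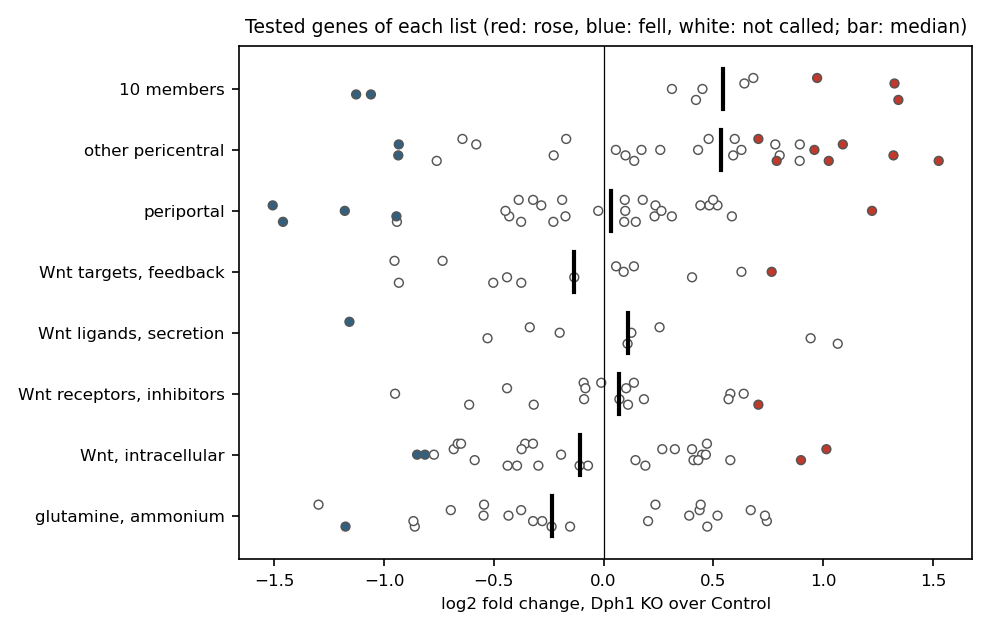
Log2 fold change of Dph1 KO over Control for every tested gene of the members and of 7 further lists (rows); red points rose, blue points fell, white points were not called, and black bars are medians. The members and the other pericentral genes have medians of 0.55 and 0.53, and each list spreads to both sides of 0.

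Genes of the Wnt pathway itself were counted in lists of ligands, receptors and intracellular parts, beside the 12.3% of all genes called. Among ligands and their secretion genes, 1 of 9 tested fell and 8 were not called. Wnt4 had 1.44 and 2.29 CPM in Dph1 KO, against 4.02 and 4.28 CPM in Control (log2 fold change -1.16; edgeR adjusted p = 0.0451), and was not called with the trend removed, with library totals alone, by DESeq2, or without either Control library or Dph1 KO replicate 1. The central vein ligands Wnt2 (4.45 and 4.35 CPM in Dph1 KO, against 3.70 and 3.67 in Control) and Wnt9b (2.25 and 2.29 CPM in Dph1 KO, against 2.50 and 3.23 in Control) were not called. Rspo3 had 3.39 and 3.29 CPM in Dph1 KO, against 1.25 and 2.22 CPM in Control, not called at an edgeR adjusted p of 0.0899.

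Of 17 tested receptor and inhibitor genes, 1 rose and 16 were not called. Lgr4, the R-spondin receptor that hepatocytes express, had 32.1 and 25.4 CPM in Dph1 KO, against 17.4 and 17.9 CPM in Control (0.70 on the log2 scale, SE 0.20, edgeR adjusted p = 0.0468). Its trend-removed value was 0.34 and not called, and leaving out any library but Dph1 KO replicate 2, DESeq2 or limma-voom also ended the call. Inside the cell, 2 of 29 tested genes rose and 2 fell. Tnks, a tankyrase gene whose product marks axin for destruction, rose by 0.90, and Usp34, a deubiquitinase gene, rose by 1.01. Tcf7l1, a repressing TCF factor gene, fell by 0.85, and Ctnnbip1, which encodes a beta-catenin inhibitor, fell by 0.81. All 4 had edgeR adjusted p from 0.0326 to 0.0429, and all 4 calls were lost without either Control library. Those of Tnks and Ctnnbip1 were also lost without Dph1 KO replicate 1, that of Tnks with limma-voom, and those of Tcf7l1 and Ctnnbip1 with library totals alone. None of the 4 was called with the trend removed, where Tle1, a corepressor gene, rose by 0.55 (edgeR adjusted p = 0.0405). Ctnnb1, the beta-catenin gene, had 182 and 149 CPM in Dph1 KO, against 107 and 114 CPM in Control, and was not called (0.58 on the log2 scale, edgeR adjusted p = 0.0986).

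Of 13 tested Wnt target and feedback genes outside the members, 1 rose and 12 were not called, beside 12.3% of all genes called, with a median of -0.13. The riser was Prox1, a hepatocyte transcription factor gene, at 75.4 and 56.9 CPM in Dph1 KO, against 36.2 and 41.7 CPM in Control (log2 fold change 0.77, edgeR adjusted p = 0.0458). Its trend-removed value was 0.39 and not called, and the call was also lost with limma-voom and without either Control library. Feedback inhibitor genes Notum and Nkd1 had log2 fold changes of -0.44 and -0.50 and were not called, and Notum stood at 0.18 with the trend removed.

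Markers of liver cell types were compared as well, beside the 12.3% of all genes called. None of 8 hepatocyte markers was called, and their summed level was 73235 and 74705 CPM in Dph1 KO, against 75509 and 88149 CPM in Control. Of 9 endothelial markers, Vwf fell and 8 were not called, with summed levels of 235 and 229 CPM in Dph1 KO, against 262 and 277 CPM in Control. None of 9 central vein endothelial genes was called, with sums of 46.5 and 47.4 CPM in Dph1 KO, against 53.7 and 53.5 CPM in Control. Of 8 stellate cell and fibroblast markers, Rgs5 rose and Des, Col1a1 and Acta2 fell, with sums of 154 and 137 CPM in Dph1 KO, against 152 and 171 CPM in Control. No marker of bile duct cells (6 tested) was called, and the 7 listed summed to 42.1 and 39.2 CPM in Dph1 KO, against 62.9 and 56.6 CPM in Control. Nor was any of 9 Kupffer cell markers, whose sums were 172 and 312 CPM in Dph1 KO, against 230 and 251 CPM in Control. None of 3 tested neutrophil markers was called, and the 5 listed summed to 2.59 and 4.99 CPM in Dph1 KO, against 4.79 and 2.67 CPM in Control. Cd79a fell among 3 tested lymphocyte markers. The 7 listed summed to 3.64 and 4.53 CPM in Dph1 KO, against 5.71 and 6.95 CPM in Control, with Trac at 0 reads. Hba-a1, whose reads a near-identical copy can share, fell among 3 tested erythroid markers. The 4 erythroid markers that were matched summed to 436 and 460 CPM in Dph1 KO, against 853 and 1732 CPM in Control. With the trend removed, 0 stellate cell and fibroblast markers rose, 1, Acta2, fell, and Cd79a was not called. The part of these cell types in the members' values was not tested.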

How the data were processed

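Liver RNA was extracted with Trizol and made into stranded mRNA libraries, per the labels' protocols. GRCm38 (mm10) is the build that the submitters' processing notes list. The sources used here do not name the aligner, the counter or the strand setting. Per the file headers, the authors deposited whole-number read counts per gene, split into unique and total reads and into exon, junction and intron reads, which are the values tested here. The deposited TPM values, which sum to 1000000 per library, were used for levels between genes, and RPKM and the fraction columns (shares of unique and intron reads) deposited by the authors were not used. Exon length is annotation from the deposited tables.

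Total gene reads were filtered by filterByExpr, scaled by TMM and compared with edgeR 4.0.16 in R 4.3.3 (quasi-likelihood test, genotype as the only term, Benjamini-Hochberg over 13303 genes, threshold 0.05). SE is the log2 fold change divided by the square root of F. The spread between libraries of a genotype, as edgeR's coefficient of variation, was 18.5%. The 2 libraries of a genotype differed by more than sampling noise (chi-square per degree of freedom 83.3 in Dph1 KO and 31.4 in Control). With 2 against 2, an exact two-sided permutation test cannot go below 0.333. The trend-removed fit used an offset from mgcv 1.9.3 (basis size 6) on GC content and exon length, with GC content from the longest GENCODE M21 transcript, found for 90.9% of tested genes. DESeq2 1.42.0, limma 3.58.1 (voom, and trend on log2(TPM + 1)), other scalings, filters and read classes, and each library left out were alternatives. With a genotype left at 1 library, that library is assumed to vary as the other pair does. Python 3.11.15 and pandas 2.3.3 made the tables.

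The 10 members and all gene lists were chosen with earlier results of these data known. Of 262 list entries, 1 was not matched. The rule for named genes took the members, Dph1, Cyp2e1, Cyp2f2, Ctnnb1 and up to 4 called genes with the lowest p-values per pathway list, or the 2 most abundant where none was called. Gls2, Rhag, Rhcg, Wnt2, Wnt9b, Rspo3, Notum, Nkd1, Tle1 and the cell type markers named were chosen outside this rule, after their values were seen.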

Additional observations from a re-analysis of the deposited data

How the results depend on the processing

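Over 13 alternatives, counts moved as follows. With library totals alone, 2634 genes rose over the whole table, and 5 members, 14 other pericentral and 6 periportal genes rose; the members added were Znrf3 and Lect2. With the GC and length trend removed, 652 genes fell over the whole table and 1 member fell. On log2(TPM + 1) with limma, 2 genes rose and 1 fell over the whole table, and 0 members, 0 other pericentral and 0 periportal genes were called in either direction. In that fit 6, 13 and 10 of them had an unadjusted p under 0.05. The share of all genes under that threshold was not counted, so these counts cannot be read as an excess. DESeq2 called 5 members. Leaving out 1 library gave 180 to 2599 rises and 346 to 2806 falls over all genes, 0 to 4 rises and 0 to 2 falls among members, 3 to 11 rises and 0 to 4 falls among other pericentral genes, and 0 to 4 rises and 1 to 8 falls among periportal genes. The highest of these counts over all genes came without Dph1 KO replicate 2 and the lowest came without a Control library. The cause was not tested.

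The member that changed sign was Axin2, at -0.25 without Dph1 KO replicate 1 and 0.90, called, without Dph1 KO replicate 2. Among other named genes, Cyp2e1 stood at -0.065 with the trend removed and from -0.0088 (without Dph1 KO replicate 1) to 0.16 (without Dph1 KO replicate 2) with 1 library left out, and Ppap2a, of the central vein endothelial list, at -0.073 with all libraries, stood at 0.19 with library totals, 0.28 on log2(TPM + 1) and from -0.16 (without Control replicate 2) to 0.0091 (without Control replicate 1) with 1 library left out. Of 128 fits of a member under an alternative, 110 kept direction and side of the threshold, 14 lost a call and 3 gained one. No paired analysis was possible because the labels give no replicate numbers shared between the genotypes. Depth limits Lgr5 most.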

Other observations

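The TPM ratio of the landmark pair Cyp2e1 (pericentral) to Cyp2f2 (periportal) was 0.759 and 0.600 in Dph1 KO, against 0.420 and 0.296 in Control, so the Dph1 KO libraries were higher without overlap. The TPM ratio of Rhbg to Lect2, both pericentral, was 0.0534 and 0.0730 in Dph1 KO, against 0.180 and 0.200 in Control. Neither ratio was tested, and neither was corrected for the GC trend. Removing the trend took the log2 fold change of Cyp2e1 from 0.056 to -0.065 and that of Cyp2f2 from -0.94 to -0.68. For Rhbg it went from -1.13 to -0.64, and for Lect2 from 0.45 to 0.49.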
